A study of Mus musculus with 81 samples.

Results

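The data describe 10 genes of the T-cell receptor apparatus in mouse thymus and thymic lymphoma: the CD3 chains (Cd3e, Cd3d, Cd3g and Cd247), the coreceptors (Cd4, Cd8a and Cd8b1), the co-stimulatory and inhibitory surface proteins Cd2 and Cd5, and the kinase Lck. They were taken by symbol, and each of the 10 was found once among the 51826 genes of the deposited count table. The study asked how aneuploidy affects tumour development. Tissue RNA was sequenced from 40 mice in 81 libraries. All mice were of C57BL/6 x 129S4Sv/Jae background and carried a Plk4 transgene at Col1a1, rtTA at Rosa and centrin-GFP at Rosa, the controls included. Normal thymus came from 8 p53+/+ mice and 1 p53+/- mouse, none of them treated. Thymic lymphomas came from 10 untreated p53-/- mice, from 9 p53-/- mice given doxycycline for 2 weeks from 30 days of age, and from 12 p53+/- mice given the same course, called treated below. The labels give no age at collection, no sorted cell fraction and no treated normal thymus, so the normal tissue differs from the treated tumours in treatment as well as in genotype. By label 4 of the 8 p53+/+ normal mice were male. So were 9 of 10 untreated p53-/-, 4 of 9 treated p53-/- and 3 of 12 treated p53+/- mice, so sex is unevenly spread over the groups. Several biopsies (4 or 5) were sequenced from 13 of the 31 lymphomas, and these were summed, so that 1 mouse is 1 replicate.

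The CD3 chains pair into dimers that carry the signal of the T-cell receptor into the cell, with the Cd247 product (the zeta chain) holding most of the signalling motifs. CD4 and CD8 bind the MHC molecule beside the receptor and bring the kinase Lck to it. Developing thymocytes begin with neither coreceptor (double-negative), then carry both (double-positive), the state of most cells of a normal thymus, and end as CD4 or CD8 single-positive cells. CD8 is a dimer of the Cd8a product with itself or with the Cd8b1 product. CD5 dampens receptor signalling and CD2 is an adhesion and co-stimulatory receptor.

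The genes lie at few loci, in GRCm38 with GENCODE M21 coordinates. Cd3g (chr9:44969572-44980431, minus strand) and Cd3d (chr9:44981786-44987339, plus strand) are transcribed away from each other with 1354 bases between their starts, and Cd3e (chr9:44998740-45009627, minus strand) lies 11.4 kb beyond the end of Cd3d. Cd8b1 (chr6:71322788-71337494, plus strand) and Cd8a (chr6:71373427-71379173, plus strand) are 35.9 kb apart. Cd4 is on the same chromosome (chr6:124864692-124888221, minus strand), while Cd247 (chr1:165788681-165877277), Cd5 (chr19:10717116-10739002), Cd2 (chr3:101275899-101287939) and Lck (chr4:129548344-129573641) each stand alone. Promoter windows were found in RefSeq (GRCm38.p6) for 7 of the 10 genes. Below are the 250 bases before the start of the paired Cd3g and Cd3d, whose levels were correlated across tumours, of Cd247, which lies on another chromosome, and of Cd8a. Capitals mark the ETS core GGAA on either strand (TTCC on the other), a motif that 93.4% of all 32851 such mouse windows hold.
Cd3g, chr9:44980432-44980681, minus strand: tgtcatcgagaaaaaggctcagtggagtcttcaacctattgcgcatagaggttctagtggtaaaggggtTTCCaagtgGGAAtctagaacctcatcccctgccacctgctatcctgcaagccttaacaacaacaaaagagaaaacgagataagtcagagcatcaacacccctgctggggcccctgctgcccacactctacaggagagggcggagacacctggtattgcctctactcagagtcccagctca
Cd3d, chr9:44981536-44981785, plus strand: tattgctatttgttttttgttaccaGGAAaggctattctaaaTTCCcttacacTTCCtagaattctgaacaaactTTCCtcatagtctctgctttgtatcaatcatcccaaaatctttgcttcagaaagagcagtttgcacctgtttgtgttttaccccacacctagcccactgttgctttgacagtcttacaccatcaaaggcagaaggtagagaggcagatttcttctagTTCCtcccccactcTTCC
Cd247, chr1:165788431-165788680, plus strand: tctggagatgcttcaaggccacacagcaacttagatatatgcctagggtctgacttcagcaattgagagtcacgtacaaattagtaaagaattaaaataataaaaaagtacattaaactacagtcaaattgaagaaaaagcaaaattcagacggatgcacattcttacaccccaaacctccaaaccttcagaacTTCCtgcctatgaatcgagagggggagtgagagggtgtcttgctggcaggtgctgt
Cd8a, chr6:71373177-71373426, plus strand: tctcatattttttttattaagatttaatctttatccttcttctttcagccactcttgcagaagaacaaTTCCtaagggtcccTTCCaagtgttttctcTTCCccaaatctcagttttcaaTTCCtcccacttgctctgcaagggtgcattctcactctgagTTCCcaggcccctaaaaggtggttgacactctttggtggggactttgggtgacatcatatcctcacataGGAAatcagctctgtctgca
The motif occurs 2 times in the Cd3g window, 6 times in that of Cd3d, 1 time in that of Cd247 and 6 times in that of Cd8a. The RUNX core TGTGGT is in 14% of all such windows and in none of these 4. These matches are descriptions of the letters and were not tied to binding.

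Library totals ran from 1.03 to 26.87 M counts (M, mega) with a median of 15 M. Levels are given as CPM, the count of a gene relative to each M counts of its library, with library size scaled by the trimmed mean of M-values (TMM). In whole tissue, fewer cells of a type and less RNA per cell cannot be told apart. One normal thymus and 1 lymphoma stood apart. The normal thymus of mouse 387 held all 10 genes below the other 7 normal thymuses, and its summed level of 6 B-cell markers was 1272 CPM against 91.77 to 119.1 CPM in those 7. Its summed level of 6 thymic epithelial markers was 103.8 CPM against a normal median of 1335 CPM. The untreated p53-/- lymphoma of mouse 881 held CD3 genes near 2 CPM and B-cell markers at 3424 CPM, Cd79a at 865 CPM among them, beside thymic epithelial markers at 345.2 CPM, the second highest of the lymphomas in its group. Counts over the 10 genes are given with and without these mice, and those of some other lists also. Sex-linked genes went against the labelled sex in 3 mice, and leaving those 3 out is reported with the processing alternatives.

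Most lymphomas held Cd3e and Cd3d RNA at levels within or near those of normal thymus, while Cd3g was often lower and Cd247 is described below. Cd3e, the epsilon chain that pairs with both delta and gamma, ran from 60.33 to 397.6 CPM in the 8 normal thymuses (median 295.6). In untreated p53-/- lymphomas it ran from 1.808 to 432.6 CPM (median 258.6), in treated p53-/- lymphomas from 130.5 to 423.9 CPM (median 259.6), and in treated p53+/- lymphomas from 118.8 to 824.2 CPM (median 236.6). The groups overlapped throughout, and 4 lymphomas exceeded the highest normal thymus, the highest being mouse 862 at 824.2 CPM. Cd3d, the delta chain, spanned 38.33 to 396.2 CPM in normal thymus (median 303.6) and 116.3 to 993.8 CPM in the 30 lymphomas other than that of mouse 881 (median 277.4). Cd3g, the gamma chain, spanned 73.96 to 471.1 CPM in normal thymus (median 371.5) and 143.8 to 657 CPM in the same 30 lymphomas (median 270.4). Of these 3 genes it was most often under the normal range when mouse 387 is set aside: 23 of those 30 lymphomas lay below the lowest of the other 7 normal thymuses, against 8 for Cd3e and 4 for Cd3d.

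**Figure D1:**
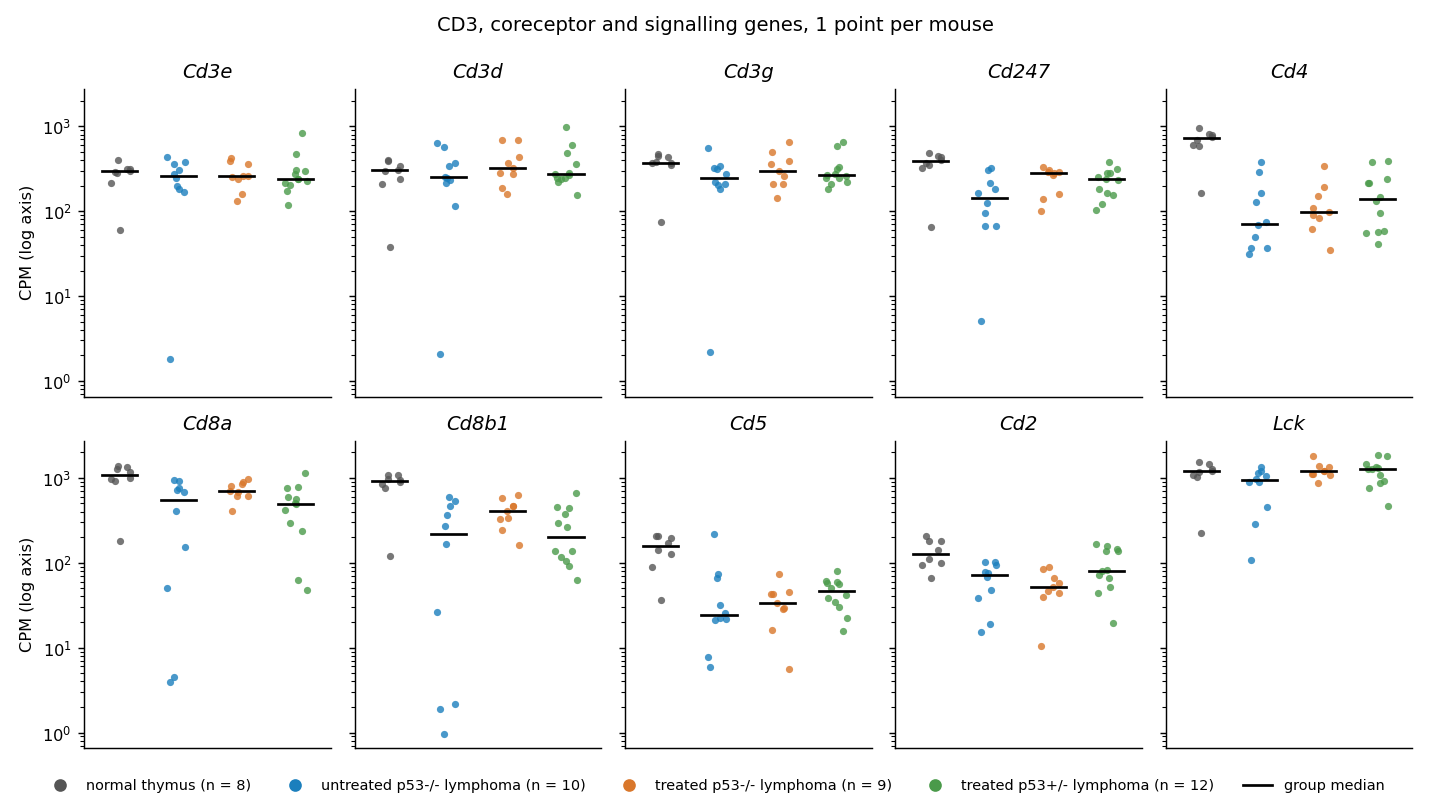
CPM of each of the 10 genes on a log axis, with 1 point per mouse, in normal thymus (n = 8), untreated p53-/- (n = 10), treated p53-/- (n = 9) and treated p53+/- lymphomas (n = 12); black lines are group medians. For Cd4, Cd8a, Cd8b1, Cd5, Cd2, Cd247 and Cd3g most lymphoma points sit below all normal points but that of mouse 387. Cd3e, Cd3d and Lck overlap normal thymus more widely, and 1 untreated lymphoma (mouse 881) lies near 2 CPM for Cd3e, Cd3d and Cd3g.

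None of these 3 chains passed the test against normal thymus in any lymphoma group. In edgeR's quasi-likelihood test over 17843 genes, with Benjamini-Hochberg adjustment and a threshold of 0.05, the log2 fold change of Cd3e was -0.14 ± 0.45 (SE; adjusted p = 0.825) in untreated p53-/-, -0.02 ± 0.44 (adjusted p = 0.979) in treated p53-/- and 0.09 ± 0.43 (adjusted p = 0.883) in treated p53+/- lymphomas. For Cd3d the same values were -0.05 ± 0.50, 0.37 ± 0.49 and 0.41 ± 0.48. For Cd3g they were -0.62 ± 0.44, -0.17 ± 0.43 and -0.15 ± 0.42. These standard errors leave room for changes of either sign, so the levels were not shown to be equal. The 3 comparisons share the same 8 normal thymuses.

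Cd247, which encodes the zeta chain, passed the test as lower in 1 of the 3 lymphoma groups. It ran from 65.29 to 484.6 CPM in normal thymus (median 387.7), and the 7 normal thymuses other than mouse 387 held at least 326 CPM. Untreated p53-/- lymphomas ran from 5.039 to 325.3 CPM (median 144.4), treated p53-/- lymphomas from 100.5 to 327.9 CPM (median 280.2) and treated p53+/- lymphomas from 104 to 381.4 CPM (median 236.3). No lymphoma exceeded the highest normal thymus, and 29 of 31 lay below those 7. Cd247 fell in untreated p53-/- lymphomas by edgeR (log2 fold change -1.23 ± 0.40, adjusted p = 0.0137), a call lost with only the 2 groups compared (-1.07, adjusted p = 0.12). It did not pass in treated p53-/- (-0.63 ± 0.41, adjusted p = 0.19) or treated p53+/- lymphomas (-0.75 ± 0.38, edgeR adjusted p = 0.103). Without mouse 881, whose library enters the shared spread, the treated p53+/- value was -0.74 and passed the edgeR test (adjusted p = 0.0395; 0.0175 to 0.166 over all alternatives).

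Cd4, the coreceptor for MHC class II, was the gene most clearly lower in all lymphoma groups. Normal thymuses held 163.4 to 952.7 CPM (median 719.6). Untreated p53-/- lymphomas held 31.11 to 377.9 CPM (median 71.43), treated p53-/- lymphomas 34.77 to 342.8 CPM (median 98.44) and treated p53+/- lymphomas 41.46 to 390.6 CPM (median 140.2). Of the 31 lymphomas, 21 lay below all 8 normal thymuses, and every one lay below the lowest of the 7 normal thymuses other than mouse 387 (586.8 CPM). By edgeR the log2 fold change of Cd4 was -2.35 ± 0.49 (adjusted p = 0.00023) in untreated p53-/-, -2.49 ± 0.51 (adjusted p = 0.000119) in treated p53-/- and -2.14 ± 0.47 (adjusted p = 0.000246) in treated p53+/- lymphomas.

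The CD8 genes encode the coreceptor for MHC class I. Cd8a, the alpha chain, ran from 182 to 1363 CPM in normal thymus (median 1091). It ran from 3.95 to 933.8 CPM in untreated p53-/- (median 540.8), from 407.7 to 963 CPM in treated p53-/- (median 690.9) and from 48.36 to 1131 CPM in treated p53+/- lymphomas (median 495.5). Treated p53-/- lymphomas formed the narrowest group, with an SD of log2 CPM of 0.38 against 3.09 in untreated p53-/- and 1.41 in treated p53+/- lymphomas. The SD of Cd4 in the same groups was 0.95, 1.28 and 1.13, so Cd8a was spread less than Cd4 in treated p53-/- lymphomas and more in the other groups. Cd8a passed the edgeR test in none of the groups (log2 fold changes -1.24 ± 0.63, -0.56 ± 0.63 and -1.09 ± 0.59, adjusted p = 0.114, 0.474 and 0.122).

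Cd8b1, the beta chain, was lower than in normal thymus in most tumours. It ran from 121.2 to 1086 CPM in normal thymus (median 923.6), and all 31 lymphomas lay below the lowest of the 7 normal thymuses other than mouse 387 (765.9 CPM). The medians were 219.3 CPM in untreated p53-/-, 402.1 CPM in treated p53-/- and 200.5 CPM in treated p53+/- lymphomas, and the lowest tumour was mouse 202 at 0.9562 CPM. By edgeR, Cd8b1 fell in untreated p53-/- (log2 fold change -1.87 ± 0.72, adjusted p = 0.0349) and treated p53+/- lymphomas (-1.70 ± 0.67, adjusted p = 0.0325), and did not pass in treated p53-/- lymphomas (-1.10 ± 0.72, adjusted p = 0.198). The treated p53+/- call was lost with no filter on low counts (-1.69, edgeR adjusted p = 0.0689), and treated p53-/- passed with only the 2 groups compared (-1.04, edgeR adjusted p = 0.0106). The untreated call was lost under 4 of the alternatives, among them leaving out the multi-biopsy tumours (-1.47, edgeR adjusted p = 0.106). Another left out the 3 mice of discordant sex genes, all of them treated (-1.78, edgeR adjusted p = 0.0554). Over all alternatives the adjusted p ran from 1.5e-05 (limma voom) to 0.191 (edgeR). The 23 untreated libraries come from 10 mice, and 8 of them from mice 202 and 881. With limma voom over these libraries, with mouse as a block through an estimated correlation, the untreated value was -4.16 for Cd8b1 and -2.90 for Cd8a, which then passed (adjusted p = 0.00223).

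**Figure D2:**
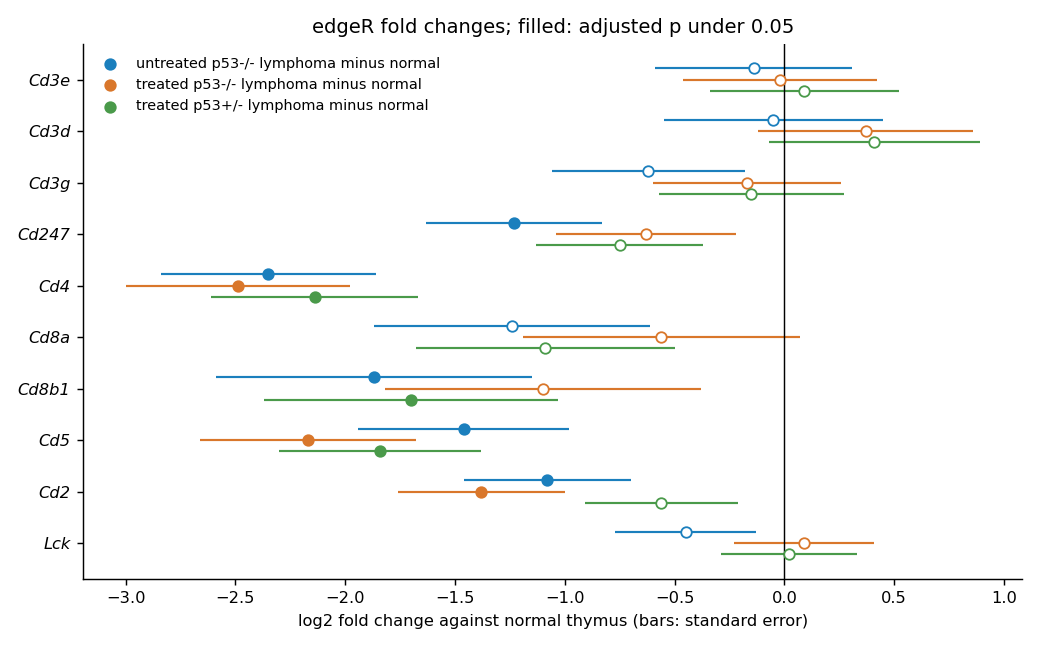
log2 fold change of each gene against the 8 normal thymuses by edgeR, for 3 lymphoma groups; bars are standard errors, and filled points have an adjusted p under 0.05. All filled points lie left of 0, and Cd4 and Cd5 are filled in each group, with Cd4 between -2.49 and -2.14.

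Cd5, an inhibitory receptor whose level in thymocytes follows receptor signal strength, was lower in each lymphoma group. Normal thymuses held 36.15 to 205.7 CPM (median 156.3). The medians were 23.99 CPM in untreated p53-/- (5.969 to 218.7), 33.47 CPM in treated p53-/- (5.535 to 73.99) and 45.97 CPM in treated p53+/- lymphomas (15.79 to 80.24). Of the 31 lymphomas, 30 lay below the 7 normal thymuses other than mouse 387, and the exception, mouse 202 at 218.7 CPM, was above all 8. By edgeR the log2 fold changes of Cd5 were -1.46 ± 0.48 (adjusted p = 0.0148), -2.17 ± 0.49 (adjusted p = 0.000403) and -1.84 ± 0.46 (adjusted p = 0.00102) in the same order of groups. The untreated call was lost with only the 2 groups compared (-1.63, edgeR adjusted p = 0.0533), and single-biopsy tumours gave -2.59 (edgeR adjusted p = 3.83e-05).

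Cd2 had medians of 125.7 CPM in normal thymus, 71.94 CPM in untreated p53-/-, 52.01 CPM in treated p53-/- and 80.79 CPM in treated p53+/- lymphomas. Normal thymuses ran from 66.23 (mouse 387) to 208.4 CPM, and the 7 other than mouse 387 held at least 93.06 CPM. All 9 treated p53-/- lymphomas lay below those 7 (highest 87.83 CPM). Untreated p53-/- and treated p53+/- lymphomas overlapped them. By edgeR Cd2 fell in untreated p53-/- (log2 fold change -1.08 ± 0.38, adjusted p = 0.0223) and treated p53-/- lymphomas (-1.38 ± 0.38, adjusted p = 0.00255). It did not pass in treated p53+/- lymphomas (-0.56 ± 0.35, edgeR adjusted p = 0.189). The untreated call was lost with single-biopsy tumours (-0.96, edgeR adjusted p = 0.0783). Lck, which phosphorylates the CD3 motifs, ran from 221 to 1539 CPM in normal thymus (median 1198), and its lymphoma medians were 933, 1206 and 1266 CPM. Its log2 fold changes were -0.45 ± 0.32, 0.09 ± 0.32 and 0.02 ± 0.31, none of which passed by edgeR (adjusted p = 0.278, 0.827 and 0.958). Among the lymphomas, Lck was lowest in mice 881 (107.4 CPM) and 202 (283.3 CPM).

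Counted together, 5 of the 10 genes were called lower in untreated p53-/- lymphomas, and 3 in each of the treated groups (p53-/- and p53+/-), and none was called higher. The genes were chosen with earlier results of these data known. Of all 17843 genes tested, 17.5% were called lower in untreated p53-/- (40.7% in either direction), 26.7% in treated p53-/- (52.1% in either direction) and 25.3% in treated p53+/- lymphomas (50.9% in either direction). The counts of 3 of 10 are therefore close to those background shares, and 5 of 10 is above its share. The count of 5 became 3 with single-biopsy tumours and 2 with only the 2 groups compared. It was 4 without the 3 mice of discordant sex genes, and also 4 with no filter on low counts. The median log2 fold change over the 10 genes was -1.16, -0.60 and -0.65 in the 3 comparisons, against 0.08, -0.04 and 0.00 over all genes. Without mouse 387 the counts were 5, 3 and 3, and without mouse 881 they were 5, 3 and 4. Markers of other cell types moved with the same contrasts: 4 of 4 fat markers, 4 of 5 dendritic-cell markers and 4 to 5 of 6 thymic epithelial markers were called lower in each, and their part in the coreceptor values was not tested. B-cell markers had summed medians of 13.2, 14.9 and 15.7 CPM in the 3 lymphoma groups against 105.3 CPM in normal thymus, but how many of the 6 were called lower rested on mice 387 and 881. The counts were 0, 6 and 6 with all mice, 3, 6 and 6 without mouse 881, 0, 3 and 0 without mouse 387 (with 1 called higher in untreated p53-/- lymphomas), and 1, 5 and 1 without both. Of the 2 NK-cell markers tested 0, 2 and 1 were lower, of 6 macrophage and myeloid markers 0, 1 and 0, and of 2 red-cell markers 0, 0 and 1. Of 4 stroma and vessel markers 1 was lower in each comparison and 1 higher in untreated p53-/- lymphomas. Without mouse 387 no macrophage, myeloid or red-cell marker was called lower, 1, 1 and 2 macrophage and myeloid markers were called higher, and of the stroma and vessel markers 1, 0 and 1 were lower and 1, 1 and 2 higher.

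Among the lymphoma groups no difference in these genes was found. In an edgeR fit without normal thymus, 0.0% of 16389 genes passed in each of the 3 comparisons, at unadjusted p under 0.05 in 1917, 864 and 1037 genes. Labelled sex, a covariate of that fit, was unevenly spread over these groups. Without it edgeR called 21 genes in treated p53+/- minus untreated p53-/- lymphomas and 0 in each other comparison. DESeq2 called 75, 12 and 3 genes and limma voom 39, 1 and 1, none of them among the 10. The lowest p belonged to Cd2, 0.83 ± 0.37 higher on the log2 scale in treated p53+/- than in treated p53-/- lymphomas (edgeR p = 0.0343, adjusted p = 0.94). Treated minus untreated p53-/- lymphomas gave 0.68 ± 0.67 for Cd8a, 0.77 ± 0.75 for Cd8b1 and -0.19 ± 0.51 for Cd4 (edgeR adjusted p = 0.741, 0.739 and 0.926). Each of these differences was near or below its standard error, which does not show the groups to be alike.

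To describe each tumour by its coreceptors, a gene was called low when its CPM was under 0.25 times the median of the 8 normal thymuses, which is 180 CPM for Cd4, 273 CPM for Cd8a and 231 CPM for Cd8b1. This reads a mean over the cells of a tissue and not the state of single cells. By that reading 12 of 31 lymphomas had a CD8-single pattern (Cd4 low alone), 7 a double-positive pattern, 6 a double-negative pattern, 1 a CD4-single pattern and 5 a mixed pattern in which Cd8a and Cd8b1 fell on different sides. In normal thymus 7 of 8 mice were double-positive, as was the p53+/- thymus, and mouse 387 was double-negative. Mouse 387 was double-positive at 0.125 times the normal median, and also with levels divided by the mean of Cd3e, Cd3d and Cd3g. That division also made the tumours of mice 328, 659 and 881 double-positive and that of mouse 280 double-negative. Untreated p53-/- lymphomas held 4 double-negative, 3 CD8-single, 2 double-positive and 1 mixed tumour. Treated p53-/- lymphomas held 6 CD8-single, 2 double-positive and 1 mixed tumour. Treated p53+/- lymphomas held 3 CD8-single, 3 double-positive, 3 mixed, 2 double-negative and 1 CD4-single tumour. Without mouse 881, a double-negative one, the other counts stay as given. These counts are descriptions without a test.

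**Figure D3:**
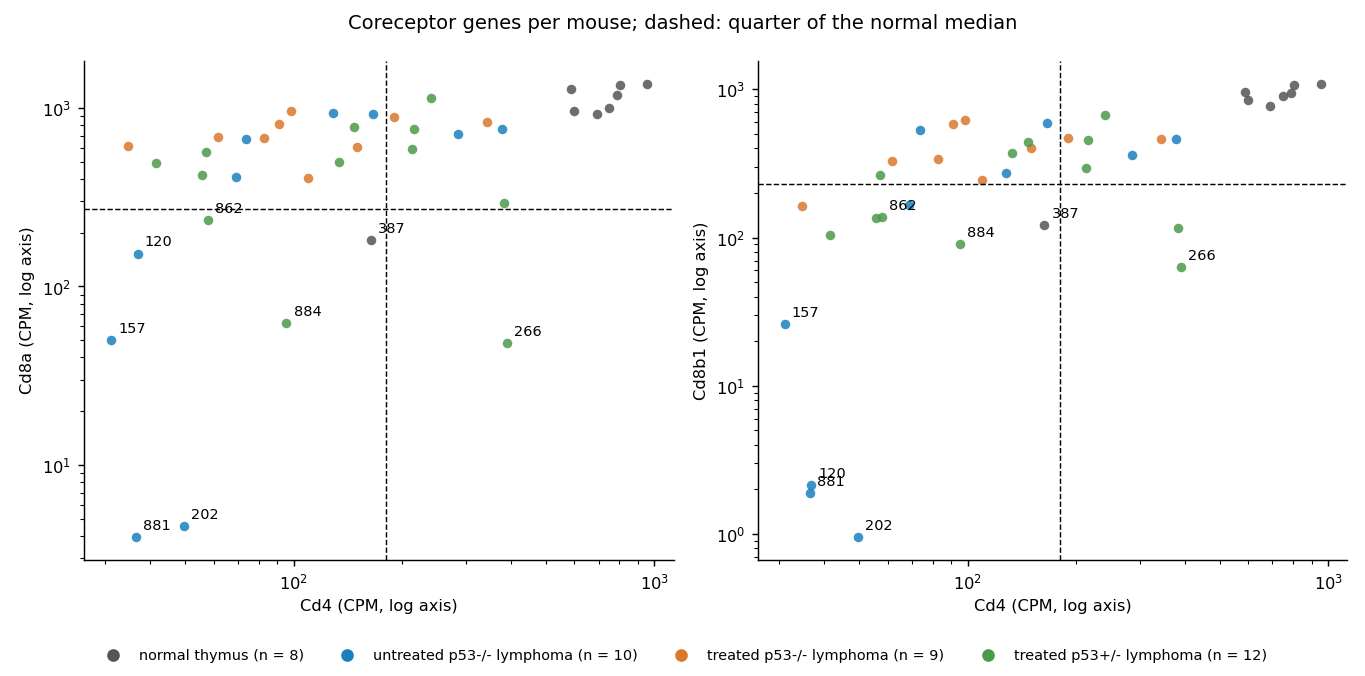
Cd4 CPM against Cd8a CPM (left) and Cd8b1 CPM (right), with log axes and 1 point per mouse; dashed lines are 0.25 times the normal median. Normal thymuses except mouse 387 lie at the upper right, most lymphomas are shifted left at Cd8a levels above the line, and mice 881 and 202 lie under 5 CPM for Cd8a.

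The classes were graded rather than separate. Of the 31 lymphomas, 8 lay within 0.25 log2 units of a threshold, 15 within 0.5 and 25 within 1. With a threshold of 0.5 times the normal median 13 tumours kept their class, and with 0.125 times 16 did. The tumours of mice 157, 202 and 881 were double-negative at all 3 thresholds, that of mouse 266 was CD4-single at all 3, that of mouse 562 CD8-single at all 3 and that of mouse 98 double-positive at all 3.

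The double-negative tumours were not alike in other genes. Mouse 202 (untreated p53-/-) held Cd4 at 49.7 CPM, Cd8a at 4.523 CPM and Cd8b1 at 0.9562 CPM, with Cd3e at 355.1 CPM and the highest Cd5 of the series. Mouse 120 (untreated p53-/-) held Cd4 at 36.9 CPM and Cd8b1 at 2.149 CPM while Cd8a remained at 152.6 CPM. Both had almost no recombinase RNA: Rag1 was 0.331 CPM in mouse 202 and 1.504 CPM in mouse 120, against 1411 to 2162 CPM in the 7 normal thymuses other than mouse 387. Runx3, a transcription factor of CD8 and innate-like lymphocytes, was 255.4 and 196.8 CPM in these 2 mice against 15.22 to 25.98 CPM in those 7. The CD4-lineage markers went different ways. Cd40lg was 18.5 and 21.92 CPM against 1.376 to 7.695 CPM in those 7. Zbtb7b was 6.509 and 8.096 CPM against 33.63 to 55.76 CPM, and Gata3 85.08 and 53.45 CPM against 47.52 to 61.69 CPM. Of the 3 NK-cell markers, mouse 202 held Klrd1 at 96.31 CPM, Klrb1c at 0.3494 CPM and no count of Ncr1, so 1 marker was above and 1 below every normal thymus.

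Mouse 157 (untreated p53-/-) held Cd4 at 31.11 CPM, Cd8a at 50.04 CPM and Cd8b1 at 26.12 CPM with high Cd3e, Cd3d and Cd3g (432.6, 627.4 and 550.3 CPM). Its Rag1 was 26.72 CPM and its Dntt, the template-free DNA polymerase of early lymphocytes, 306.7 CPM. Mouse 862 (treated p53+/-) had Cd8a near the threshold, 3 double-negative and 2 mixed biopsies, and a CD8-single pattern at 0.125 times the normal median. It held the highest Cd3e and Cd3g of the series, with Cd4 at 57.93 CPM and Cd8a at 236 CPM, and unlike the others kept Rag1 (953.5 CPM) and Ptcra, the pre-T-cell receptor alpha chain (202.8 CPM against 11.65 to 35.44 CPM in the 7 normal thymuses). Mouse 884 (treated p53+/-) held Cd4 at 95.41 CPM, Cd8a at 62.57 CPM, Rag1 at 31.07 CPM and the receptor alpha constant gene Trac at 475.8 CPM, above the highest normal thymus (376.8 CPM). The sixth, mouse 881, had almost no T-cell receptor RNA of any kind: its 4 libraries together held 103 counts of Cd3e, 118 of Cd3d and 124 of Cd3g, and Trbc2 was 5.601 CPM.

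Mouse 266 (treated p53+/-) was the CD4-single tumour, with the highest Cd4 of the lymphomas (390.6 CPM) beside Cd8a at 48.36 CPM and Cd8b1 at 63.36 CPM. Its Trac was 1353 CPM, the highest of all mice, its Ptcra 1.174 CPM and its Rag1 97.36 CPM. In the 12 CD8-single tumours Rag1 ran from 504.9 CPM (mouse 643) to 2419 CPM (mouse 497) and Nkg7, a granule gene of mature CD8 and NK cells, was at most 13.54 CPM (mouse 908), within or under the normal range of 11.08 to 28.92 CPM. The other CD8-lineage markers differed from it: Runx3 ran from 34.09 (mouse 497) to 115.1 CPM (mouse 908), above all 8 normal thymuses in each of the 12, as it also was in all 7 double-positive tumours and in the CD4-single one, and Itgae from 0.9475 to 36.02 CPM against 2.89 to 31.04 CPM in normal thymus. Among the double-positive tumours, mouse 869 (treated p53-/-) held Trac at 922.5 CPM with Ptcra at 2.498 CPM, while mouse 25 (treated p53+/-) held Trac at 69.87 CPM with Ptcra at 127.1 CPM. Mouse 903 (treated p53+/-, mixed) was the tumour highest in the receptor delta constant gene Trdc, at 375.3 CPM.

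Ratios between members within a library do not depend on scaling and show which genes parted from each other. The ratio of Cd4 to Cd8a counts was 0.457 to 0.895 in normal thymus and lay below all 8 normal thymuses in 24 of 31 lymphomas, with a median of 0.311 in untreated p53-/- lymphomas, and of 0.122 (p53-/-) and 0.255 (p53+/-) in the treated groups. All 9 treated p53-/- lymphomas were below the normal range. It lay above that range in 5 lymphomas, up to 11 in mouse 202, where Cd8a itself is near 0. The ratio of Cd8a to Cd8b1 was 1.12 to 1.51 in normal thymus and above that range in 25 of 31 lymphomas, with a median of 1.89 over all 31. It reached 70 in mouse 120 and was below the normal range in mice 884 (0.693) and 266.

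**Figure D4:**
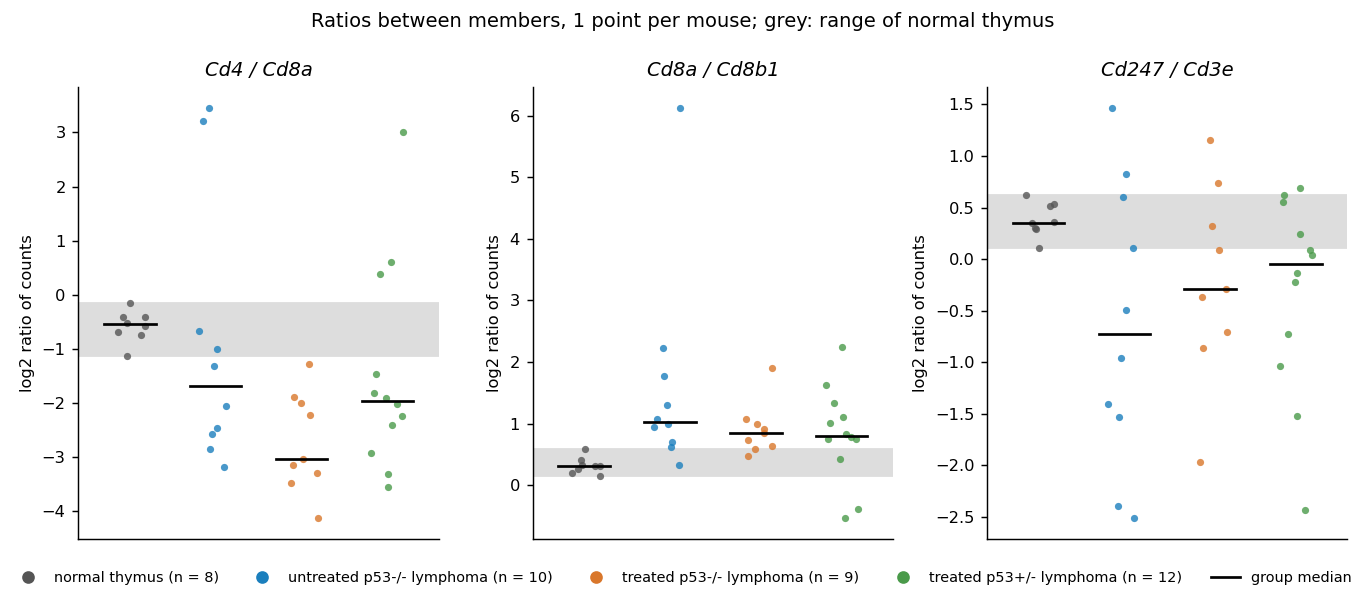
log2 ratio of counts for Cd4 to Cd8a, Cd8a to Cd8b1 and Cd247 to Cd3e, 1 point per mouse by group, with group medians as black lines and the range of the 8 normal thymuses in grey. Of 31 lymphomas, 24 lie below the grey band for Cd4 to Cd8a, 25 above it for Cd8a to Cd8b1 and 20 below it for Cd247 to Cd3e.

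Within the CD3 complex, the ratio of Cd247 to Cd3e was 1.08 to 1.54 in normal thymus and below that range in 20 of 31 lymphomas. It was lowest in mice 120 (0.176) and 862 (0.186) and above the range in 5, mouse 881 included. Cd3d to Cd3e stayed within a narrower span, 0.683 to 2.10 in lymphomas against 0.637 to 1.40 in normal thymus, and Cd3g to Cd3e ran from 0.717 to 1.8 against 1.12 to 1.73. Lck to Cd3e was 3.48 to 5.13 in normal thymus and 0.796 (mouse 202) to 59.3 (mouse 881) in lymphomas.

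Across the 30 lymphomas other than that of mouse 881, log2 CPM of the 3 clustered CD3 genes rose and fell together, with Pearson r of 0.85 for Cd3e with Cd3g, 0.85 for Cd3d with Cd3g and 0.76 for Cd3e with Cd3d. Cd247 did not follow them (r = -0.28 with Cd3e, -0.05 with Cd3d and -0.07 with Cd3g) and lay nearer to Cd8b1 (0.67). Cd8a and Cd8b1 had r = 0.86, and Lck had 0.79 with Cd8b1 and 0.78 with Cd8a, with lower Spearman values of 0.52 and 0.49. Cd4 ran opposite to the CD3 genes (r = -0.59 with Cd3e, -0.53 with Cd3d and -0.62 with Cd3g). With mouse 881 included, r of Cd247 was 0.67 with Cd3e, 0.69 with Cd3d and 0.72 with Cd3g, and that of Cd4 with Cd3e 0.00, so these values rest on whether that tumour is counted. These correlations describe tumours that share 1 scaling and 3 treatment groups, and no p is given.

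Among 11067 genes whose log2 CPM averaged 2 or more, those most like the mean of Cd3e, Cd3d and Cd3g over all 31 lymphomas were Cd27, a co-stimulatory receptor of lymphocytes (r = 0.882), Xlr4b (0.874) and Skap1, an adaptor of T-cell adhesion (0.873). Without mouse 881 the list had other names, Elp5 (0.792), BC052040 (0.787) and Ndufaf8 (0.783). The genes most like Cd4 were Sfpq (0.79), Hectd3 (0.763) and Slc35d1 (0.761), and without mouse 881 E2f2 (0.798), Sfpq (0.777) and Sec24c (0.767). The gene most like Cd8a was Gm44175 with and without that tumour (r = 0.871 and 0.882), a lincRNA gene on the minus strand at chr6:71354351-71360829, between Cd8b1 and Cd8a and 12.6 kb before the start of Cd8a. Ptprf (0.858) and Gm15340 (0.854) came next over 31 lymphomas, and Rag1 (0.875) and Ada (0.811) over 30.

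The 13 tumours with several biopsies showed how constant these levels were within a tumour. The median SD of log2 CPM among biopsies of 1 tumour was between 0.16 (Cd3g and Lck) and 0.33 (Cd5). Between the tumours without mouse 881, the SD was 0.53 for Cd3g, 0.58 for Cd3e, 1.04 for Cd4, 2.45 for Cd8a and 2.71 for Cd8b1. The between-tumour SD was 9.52 times the within-tumour SD for Cd8a and 1.91 times for Cd3d. The SDs of Cd8a and Cd8b1 include mouse 202, whose biopsies held 1.985 to 8.35 and 0.09376 to 2.197 CPM, and were not computed without it. In 8 of 13 tumours all biopsies had the same coreceptor pattern. Biopsy libraries were scaled on their own, so their CPM can lie outside the value of the summed tumour. Cd3e of mouse 202 ran from 317.2 to 341.6 CPM over 4 biopsies, and Cd8a of mouse 857 from 842.1 to 927.5 CPM.

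**Figure D5:**
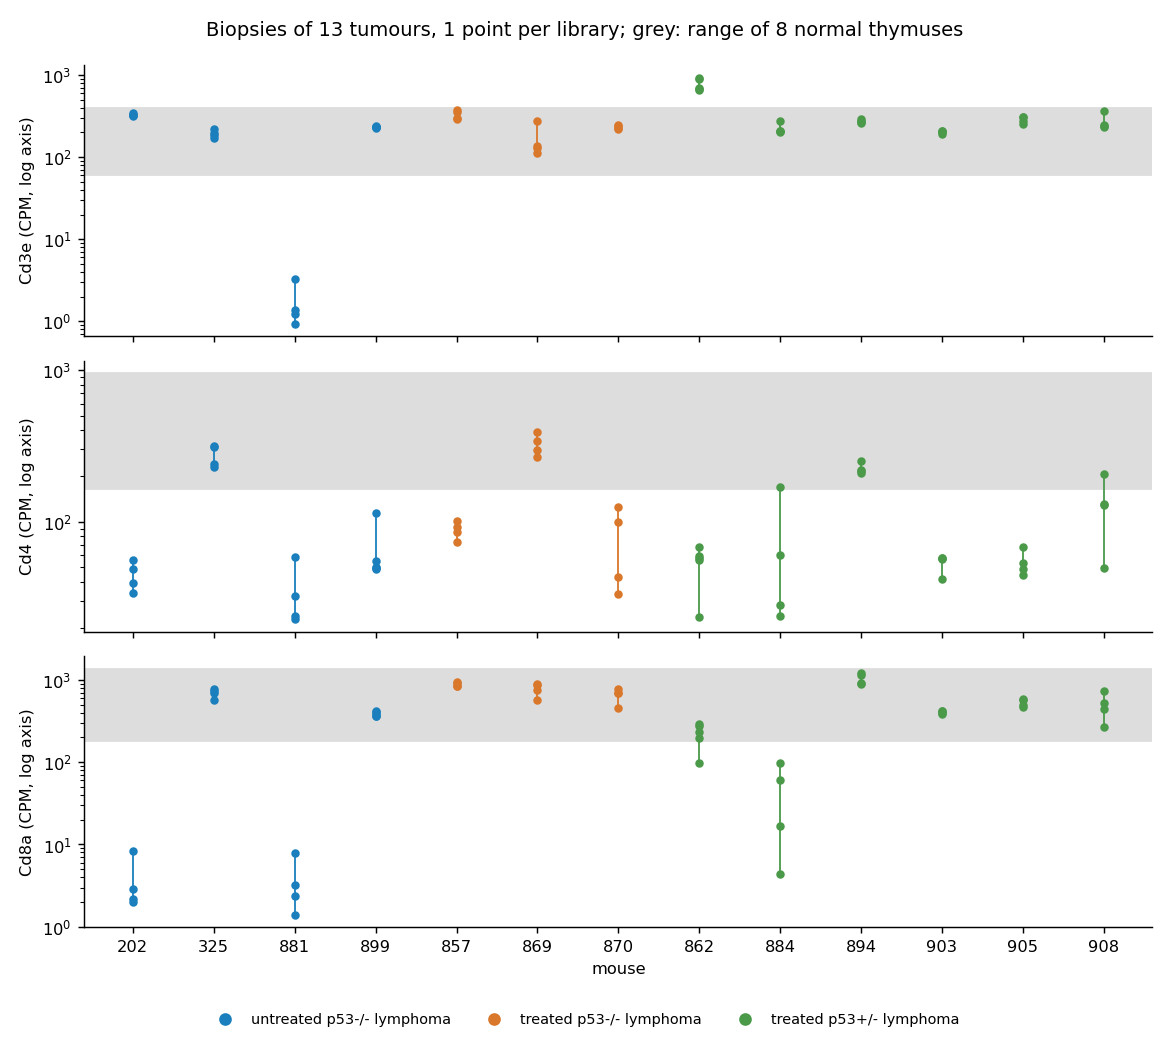
CPM of Cd3e, Cd4 and Cd8a on log axes in each biopsy of 13 lymphomas, 1 point per library, with a line from lowest to highest biopsy; grey marks the range of the 8 normal thymuses. Biopsies of 1 tumour lie close together for Cd3e in most mice, while mouse 884 spans 4.397 to 97.93 CPM for Cd8a.

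Biopsies differed most, by SD of log2 CPM, in mouse 202 for Cd8b1 and in mouse 881 for Cd3e, Cd3d and Cd3g. For Cd4, Cd8a, Cd247 and Cd5 they differed most in mouse 884 (treated p53+/-). The 4 biopsies of mouse 884 held Cd8a at 97.93, 16.89, 61.02 and 4.397 CPM and Cd4 at 170, 24.01, 59.9 and 28.38 CPM. They held Cd247 at 678.7, 129.3, 214.6 and 143.7 CPM. Cd3e differed less, at 272.1, 210.9, 202.4 and 207.7 CPM. The biopsy highest in Cd8a was also highest in Cd4 and Cd247, and all 4 were double-negative by the rule above. Cd4 also varied in mouse 908 (49.23 to 204.7 CPM), whose biopsies were read as double-positive, CD8-single and mixed, and in mouse 870 (33.13 to 125.1 CPM). In mouse 881 each biopsy held Cd3e between 0.9317 and 3.278 CPM.

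Of 26 T-cell receptor signalling genes, 3 rose and 2 fell in untreated p53-/-, 2 rose and 7 fell in treated p53-/-, and 1 rose and 4 fell in treated p53+/- lymphomas, with median log2 fold changes of -0.14, -0.41 and -0.07. With all mice the lower counts are close to or under the shares of all genes called lower (17.5%, 26.7% and 25.3%) and the higher counts are under those called higher (23.2%, 25.4% and 25.6%). In treated p53-/- lymphomas 11 of 26 (42.3%) were lower without mouse 881 against 27% of all genes, and 10 of 26 (38.5%) without both mice against 21.2%. Without mouse 387 alone 6 were lower (23.1%) against 20.8%, so the count rose with mouse 881 left out. In treated p53+/- lymphomas 2 were higher when mouse 387 or mouse 881 was left out, and 6 were lower without mouse 881. Without both mice the 3 groups had 4, 10 and 6 lower and 4, 2 and 3 higher. Zap70, the kinase that docks on phosphorylated CD3 chains, rose in each group by edgeR (log2 fold changes 0.87, 0.96 and 0.86, adjusted p = 0.00231, 0.000436 and 0.00109). Cd6, a surface protein related to Cd5, fell in each (-1.16, -1.28 and -1.37, edgeR adjusted p = 0.0382, 0.0173 and 0.00775). Of the 5 receptor chain genes only Ptcra was called by edgeR, higher in treated p53-/- (2.42, adjusted p = 0.0335) and treated p53+/- lymphomas (2.20, adjusted p = 0.0458) and not passing in untreated ones (0.81, adjusted p = 0.518). Without mouse 387 no receptor chain gene was called higher in any group, and without mice 387 and 881 Ptcra was called in treated p53-/- lymphomas and not in treated p53+/- ones. Trac, Trbc1, Trbc2 and Trdc passed in none with all mice, and with mouse 387, mouse 881 or both left out 1 chain, Trdc, was called lower in treated p53-/- lymphomas.

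Stage markers are counted here beside 17.5%, 26.7% and 25.3% of all genes called lower in the 3 comparisons. Of 8 double-positive markers, 3 fell in untreated p53-/- and 1 in each treated group, the latter under those shares. Of 7 mature single-positive markers 2, 5 and 5 fell, and of 5 early double-negative markers 1, 1 and 2 rose, where 23.2%, 25.4% and 25.6% of all genes were called higher. Of 3 CD4-lineage markers 1, 1 and 2 fell, and without mouse 881 the third, Gata3, was called higher in treated p53+/- lymphomas. Zbtb7b, the transcription factor that sets the CD4 lineage, named here after its values were seen, fell in all 3 comparisons by edgeR (-2.38, -2.56 and -2.36, adjusted p = 0.000241, 9.72e-05 and 7.18e-05). Runx3, named for the same reason, rose in all 3 (2.23, 1.37 and 1.98, edgeR adjusted p = 0.000265, 0.0104 and 0.000332). Of 3 CD8-lineage markers it was the one that rose, while Nkg7 fell in the treated groups (-3.23 and -3.13, edgeR adjusted p = 0.00368 and 0.00175).

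The fold changes were set beside the median of their chromosome. The median log2 fold change of the 995 genes tested on chromosome 6, which carries Cd4, Cd8a and Cd8b1, was -0.10, -0.39 and -0.28 in the 3 comparisons. Relative to that median Cd4 was -2.25, -2.10 and -1.86, Cd8b1 -1.77, -0.71 and -1.43, and Cd8a -1.13, -0.17 and -0.81. For Cd5 on chromosome 19 the chromosome medians were -0.10, -0.41 and -0.38 and the remaining differences -1.36, -1.76 and -1.46. Lck on chromosome 4, where the medians were 0.27, 0.25 and 0.38, was -0.72, -0.15 and -0.36 relative to its chromosome.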

How the data were processed

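RNA from frozen thymic tissue was sequenced. The authors deposited expected counts per gene from RSEM, not scaled between libraries, and 14.25% of the deposited values are not whole. CASAVA 1.8, fastp, STAR 2.7.2b, RSEM 1.1.17 and mm10 are named, per the submitters' processing notes, while strandedness and filters are not given in the sources used here. Expected counts were rounded and biopsies summed per mouse. All 81 columns were matched to a sample, and 51633 gene IDs (99.63%) were found in GENCODE M21. The main test was edgeR 4.0.16 (R 4.3.3) with TMM scaling, filterByExpr, a robust quasi-likelihood fit with labelled sex as covariate, and Benjamini-Hochberg adjustment over all genes at 0.05. DESeq2 1.42.0 and limma 3.58.1 (voom) were alternatives. The procedure was tested on simulated data. Depth (1.03 to 26.87 M counts per library) limits genes near 1 CPM. Ratios are of counts with 0.5 added.

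The genes and marker lists were chosen with earlier results of these data known. Genes named were the 10 members, the called gene with the largest mean change in each direction of the signalling and receptor chain lists, the 3 genes most like the CD3 mean, Cd4 and Cd8a, and markers of fixed cell type lists. Markers named for single tumours were picked after their values were seen. The p53+/- normal thymus, 1 mouse, entered no main comparison and was joined to the normal thymuses in 1 alternative.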

Additional observations from a re-analysis of the deposited data

Results flagged for a closer look

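Each result here is a mouse that lay farther from the rest of its group than Dixon's 95% critical value. Of 48 sets of log2 values checked, 16 met it, and chance alone flags about 1 in 20 groups. The 16 were in normal thymus, untreated p53-/- and treated p53-/- lymphomas. None is listed for treated p53+/- lymphomas, which does not show that no tumour of that group stood apart. The sets are not independent, since 8 of the 16 came from 1 normal thymus and 5 from 1 lymphoma.

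The normal thymus of mouse 387 was lowest of 8 for Cd3e (log2 CPM 5.92, next 7.73), Cd3d (5.26), Cd3g (6.21), Cd247 (6.03), Cd4 (7.35), Cd8a (7.51), Cd8b1 (6.92) and Lck (7.79). The untreated p53-/- lymphoma of mouse 881 was lowest of 10 for Cd3e (0.91, next 7.41), Cd3d (1.1), Cd3g (1.17) and Cd247 (2.35), and highest for the log2 ratio of Lck to Cd3e (5.89).

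In mouse 120, an untreated p53-/- lymphoma, the log2 ratio of Cd8a to Cd8b1 was 6.13, against 2.23 in the next tumour. In treated p53-/- lymphomas, Cd2 was lowest in mouse 490 (log2 CPM 3.41, next 5.32) and the log2 ratio of Cd8a to Cd8b1 highest in mouse 663 (1.90, next 1.07).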

How the results depend on the processing

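Of the alternative values with a test, 370 kept their direction and side of the threshold, 8 lost a call, 4 gained one and 18 changed sign. Of the alternative counts of called genes among the members alone, 67 stayed within 1.5 times and 2 did not. Counts of the signalling, receptor chain and marker lists were not part of that tally. Some of those list counts moved beyond 1.5 times when mouse 387, mouse 881 or both were left out. The sign changes were all in genes with no call. In untreated p53-/- lymphomas Cd3e was 0.08 with single-biopsy tumours, and Cd3d was 0.05 without the sex covariate, 0.00 without the 3 mice of discordant sex genes, 0.09 with single-biopsy tumours, 0.03 with only the 2 groups compared, 0.09 without mouse 881 and 0.06 without mice 387 and 881. In treated p53-/- lymphomas Cd3e was 0.01 with limma voom, 0.19 without those 3 mice, 0.07 with single-biopsy tumours and 0.04 with only the 2 groups, and Lck was -0.01 without scaling factors. In treated p53+/- lymphomas Cd3e was -0.08 without scaling factors and -0.17 with single-biopsy tumours, and Lck was -0.15 and -0.13 under the same settings, -0.03 without mice 387 and 881 and -0.04 without mouse 387.

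The 5 genes called in untreated p53-/- lymphomas became 3 with single-biopsy tumours and 2 with only the 2 groups compared. Both settings use fewer mice, but with only the 2 groups compared the treated p53-/- count rose from 3 to 4. The reason for the lost calls was not tested. Without scaling factors, untreated calls over all genes went from 4139 higher and 3131 lower to 3105 and 3551. With a threshold of 0.5 times the normal median the patterns were 11 double-negative, 1 double-positive, 7 CD8-single, 2 CD4-single and 10 mixed. With 0.125 times they were 3 double-negative, 16 double-positive, 8 CD8-single, 2 CD4-single and 2 mixed. CD4-single tumours numbered 2 without scaling factors and 2 without mouse 387. The alternatives without mouse 881, and the marker list counts without mice 387 and 881, were chosen after seeing the data. No paired analysis was possible because mouse numbers are not shared between groups. Cd8b1 in mice 202 and 120 and the CD3 genes in mouse 881 rest on few counts.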
